A study of Homo sapiens with 59 samples.

Results

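The nuclear genes for the subunits of oxidative phosphorylation were taken as the rows of the deposited expression table whose symbols begin NDUFA, NDUFB, NDUFC, NDUFS or NDUFV followed by a digit, or are SDHA to SDHD, or begin UQCR, COX4 to COX8, or ATP5. The rule found 89 of 19084 rows: 39 under complex I names, 4 under complex II, 9 under complex III, 18 under complex IV and 19 under complex V. Of these, 81 name subunits or their tissue isoforms. The other 8 are the readthrough loci NDUFC2-KCTD14 and ATP5J2-PTCD1, the near-copies UQCRHL and ATP5L2, the assembly-related ATP5S, ATP5SL and COX7A2L, and COX4NB, which is not a respiratory chain gene. The 13 subunits encoded by the mitochondrial genome were not analysed here.

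Oxidative phosphorylation passes electrons from NADH through complex I, or from succinate through complex II, to ubiquinone, then through complex III and cytochrome c to complex IV, where oxygen is reduced. Complexes I, III and IV pump protons across the inner mitochondrial membrane, and complex V, the ATP synthase, uses their return to make ATP. Pluripotent and early progenitor cells are known for high glycolysis, and neurons for a high demand for oxidative ATP.

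The samples were neural stem cells differentiated from WA09 (H9), a human embryonic stem cell line, and each value is the mRNA of a whole culture. All cultures received 200 ng/mL FGF8b, then CHIR99021, an inhibitor of the kinase GSK3 that activates Wnt signalling, for 1 of 20 durations (every 2 h from 2 to 24 h, then every 6 h to 72 h), then medium with retinoic acid for 4 days, after which they were lysed. There were 59 libraries with the labels A1, A2 and B1 at each time, except at 48 h, where A1 and A2 were analysed. A culture without CHIR99021 was not analysed here, and a longer exposure was also a longer total culture, so the effects of exposure and of culture age cannot be told apart. The times are called early (2, 4, 6 and 8 h), first day (18, 20, 22 and 24 h) and late (54, 60, 66 and 72 h), with 12 libraries in each. Nothing in the labels says whether A1, A2 and B1 were separate differentiations, so the p-values rest on the spread among libraries, part of which may be technical. In bulk RNA, fewer cells of a type and less RNA per cell cannot be told apart.

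Values are TPM, in which reads are scaled by transcript length and to the same total in all libraries, so that sequencing depth cannot be read from them. Between 11004 and 13085 genes reached 1 TPM in 56 libraries. The other 3 stood apart: 72 h A2 with 9348 genes, 4 h B1 with 9695 and 42 h B1 with 9924. In those 3, 15, 13 and 25 of the tested members were listed at 0, against 1 to 8 (median 3) in the rest, so the counts and several of the differences are also given without them. As a check of the label, the summed TPM of 11 neural progenitor markers was 2138 to 4276 early and 2249 to 3885 late, and none of the 11 was at 0 across either group. Singly, 8 of these 11 were higher late than early and 2 lower (median difference 0.80). Markers of other cell types moved too: 10 of 10 tested epithelium markers (summed TPM 1416 to 3861 early, 484 to 796 late, with CLDN7, ESRP1 and GRHL2 at 0 in all late libraries) and 8 of 8 endoderm markers (190 to 619 early, 46.8 to 145 late, with APOA2, AFP, TTR and GATA4 at 0 in all late libraries) were lower late than early. In the same comparison 7 of 10 neuron markers were higher (summed TPM 220 to 373 early, 296 to 594 late). Of 7 tested pluripotency markers 2 were lower and 1 higher (median difference -0.73), and the summed TPM of that list did not overlap, at 1497 to 3228 early and 915 to 1420 late. Their part in the results below was not tested.

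The promoters of 5 members whose levels differed between late and early are shown first, because they hold, or lack, the letters recognised by known regulators of this gene family. Each line is the 250 bases before the annotated start, 5′ to 3′ on the gene's own strand, from RefSeq on GRCh38.p14. Capitals mark CCGGAAG or its reverse complement, the core bound by ETS factors such as GABPA, and GCGCATGCGC, the palindrome bound by NRF1. UQCRQ lies at chr5:132866392-132866641 on the plus strand and UQCRH at chr1:46303448-46303697 on the plus strand. UQCRFS1 lies at chr19:29213152-29213401 on the minus strand, ATP5C1 (now ATP5F1C) at chr10:7787927-7788176 on the plus strand, and NDUFA4L2 (now COXFA4L2) at chr12:57240763-57241012 on the minus strand.
UQCRQ: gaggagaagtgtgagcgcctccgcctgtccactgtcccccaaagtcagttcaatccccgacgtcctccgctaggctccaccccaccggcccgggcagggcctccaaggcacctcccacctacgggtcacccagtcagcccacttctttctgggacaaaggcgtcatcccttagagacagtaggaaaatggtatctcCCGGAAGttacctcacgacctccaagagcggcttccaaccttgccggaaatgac
UQCRH: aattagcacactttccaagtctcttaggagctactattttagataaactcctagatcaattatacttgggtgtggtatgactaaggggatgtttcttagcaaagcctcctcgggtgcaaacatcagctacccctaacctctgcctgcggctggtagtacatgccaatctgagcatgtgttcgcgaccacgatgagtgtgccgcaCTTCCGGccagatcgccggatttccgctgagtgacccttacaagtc
UQCRFS1: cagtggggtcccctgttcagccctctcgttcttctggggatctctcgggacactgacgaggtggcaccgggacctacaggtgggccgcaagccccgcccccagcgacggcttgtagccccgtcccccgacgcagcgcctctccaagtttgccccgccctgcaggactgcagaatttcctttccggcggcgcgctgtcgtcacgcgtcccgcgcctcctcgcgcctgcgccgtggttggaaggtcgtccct
ATP5C1: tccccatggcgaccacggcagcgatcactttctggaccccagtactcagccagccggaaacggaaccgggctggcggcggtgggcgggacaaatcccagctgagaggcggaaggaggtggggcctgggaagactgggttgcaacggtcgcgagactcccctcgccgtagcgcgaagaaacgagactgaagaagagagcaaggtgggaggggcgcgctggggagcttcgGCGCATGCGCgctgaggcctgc
NDUFA4L2: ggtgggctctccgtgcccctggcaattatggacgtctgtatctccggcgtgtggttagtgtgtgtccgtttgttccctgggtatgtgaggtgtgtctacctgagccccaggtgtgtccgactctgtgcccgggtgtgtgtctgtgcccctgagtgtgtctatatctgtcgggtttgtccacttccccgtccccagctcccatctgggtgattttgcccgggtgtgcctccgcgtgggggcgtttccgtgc

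Of the 81 subunit rows, 67 matched a RefSeq promoter by symbol. In the window from 250 bases before to 50 after the start, on both strands, CCGGAAG stood in 19 of the 67 (28.4%), against 10.7% of all 27305 promoters in the same set and 14.2% of the 15843 of protein-coding genes, the class to which the members belong. GCATGCGC, the shorter NRF1 core contained in the palindrome, stood in 13 (19.4%), against 3.27% and 4.26%. AAGATGGC, a core of YY1, stood in 11 (16.4%), against 3.03% and 3.91%. ACGTG, the core of the hypoxia response element, stood in 17 (25.4%), against 21.6% and 23.7%. By complex, the NRF1 core was in 5 of 33 promoters of complex I, 2 of 3 of complex II, 0 of 7 of complex III, 2 of 13 of complex IV and 4 of 11 of complex V. The ETS core was in 3 of 7 complex III promoters (UQCRQ, UQCRH and UQCR11). Counted from the start, it begins at -54 in UQCRQ and at -46 in UQCRH, and the NRF1 palindrome begins at -22 in ATP5C1. UQCRFS1 and NDUFA4L2 hold neither core in this window. These matches describe letters in a window and are not evidence of binding.

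Levels ranged widely among the members. Of the 89, 49 were above 0 in all 59 libraries, 3 were at 0 in every library, and 35 of the 84 tested were at 0 in at least 1 (17 of them outside the 3 libraries of few genes). The most abundant member was ATP5A1, the catalytic-head subunit alpha of complex V, at 1027 ± 82.5 TPM (SD, n = 59), followed by ATP5B, the catalytic beta subunit, at 907 TPM. Median levels over the members of a complex were 159 TPM for complex IV, 123 for V, 91.6 for I, 86.4 for III and 74.0 for II. Summed over the 81 subunit rows, the members made up 12717 ± 1390 TPM (n = 59), from 9806 to 15534. The sum overlapped between the groups of times, at 12205 to 15534 (median 13531) early, 10543 to 14801 (11919) on the first day, and 10427 to 15274 (11496) late. Per complex the early and late means were 5066 ± 507 and 4442 ± 561 TPM for I, 280 ± 46.9 and 298 ± 42.3 for II, 1070 ± 105 and 933 ± 74.5 for III, 2306 ± 392 and 1966 ± 528 for IV, and 4969 ± 407 and 4338 ± 490 for V (SD, n = 12 each). The sums of 4 complexes had lower means late and that of complex II a higher one, and early and late libraries overlapped in all 5.

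**Figure D1:**
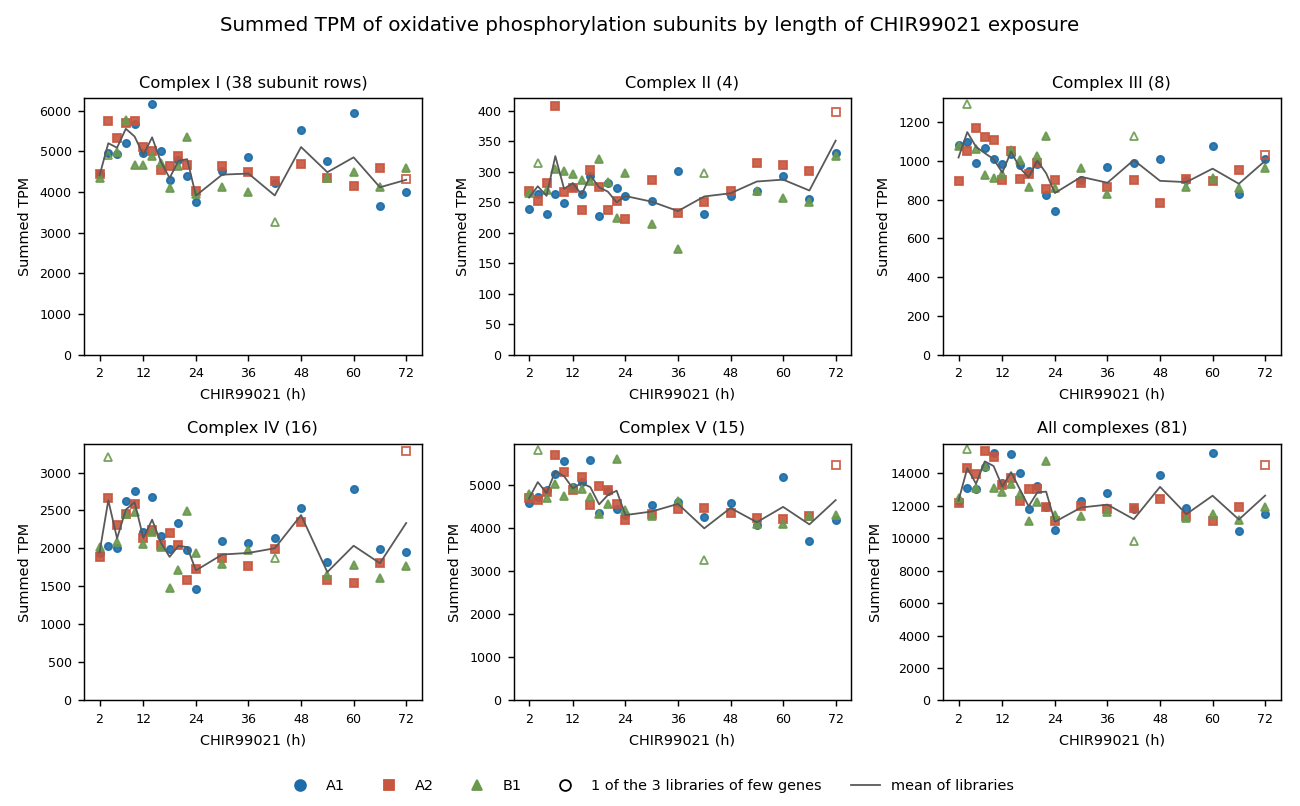
Summed TPM of the subunit rows of each complex and of all 81 (vertical axes) against hours of CHIR99021 (horizontal axes), 1 point per library, with the mean per time as a line. The sum of all complexes runs from 9806 TPM (42 h B1) to 15534 TPM (4 h B1), both among the 3 libraries of few genes, which are drawn as open symbols.

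Of the 84 members with at least 1 TPM in at least 3 libraries, 19 changed smoothly over the course, by limma's F-test on a spline of hours with an adjusted p under 0.05 over all genes, against 36.8% of all 15305 genes tested. They were 8 of complex I, 1 of II, 4 of III, 2 of IV and 4 of V. The lowest adjusted p-values from limma were 4.8e-05 for ATP5C1, 6.9e-05 for NDUFA4L2, 0.00050 for NDUFS5 and 0.00073 for UQCR11. When the 20 time points were compared without a curve, 16 members differed, against 35.1% of all genes tested, with 9 in complex I, 0 in II, 3 in III, 1 in IV and 3 in V. Complex II had 1 of 4 at an unadjusted p under 0.05 in that test. The lowest limma adjusted p there, 0.00015, belonged to NDUFC2. The member share was below the share of all genes in both tests. Without the 3 libraries of few genes, 30 members differed between time points, when 48.6% of all genes did.

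Late against early cultures, 14 of 84 members differed by limma (16.7%, against 30.1% of all genes tested): 11 were lower late (15.8% of all genes were) and 3 higher (14.3%). The median difference over the 84, on the log2(TPM + 1) scale used for all differences here, was -0.19, against -0.04 over all genes, and 62 of 84 were negative. On that scale low genes are understated. By complex, 4 of 9 members of III were lower, 4 of 39 of I lower and 2 higher, 2 of 13 of IV lower, 1 of 19 of V lower, and 1 of 4 of II higher. Complex here follows the gene name. The calls under I thus include NDUFA4 (lower) and NDUFA4L2 (higher), discussed below, and the readthrough locus NDUFC2-KCTD14 (lower). Without the 3 libraries of few genes the count was 23 of 84, with 20 lower and 3 higher, when 36.8% of all genes passed; 11 of the 14 were among the 23. By complex those 20 were 9 of I, 3 of III, 3 of IV and 5 of V. The added lower members included NDUFB10, NDUFB9 and NDUFA2 of I, COX5B of IV, and ATP5B, ATP5F1, ATP5H and ATP5J of V. The 3 higher ones there were NDUFA4L2, SDHA and NDUFC1 of I, while NDUFS1 did not pass (0.26). NDUFC1 had a difference of 0.39 (SE 0.10, limma adjusted p = 0.0017) in that setting and did not pass in all 59 libraries. Of its 12 late libraries 11 were above the early median and 7 above the early maximum.

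**Figure D2:**
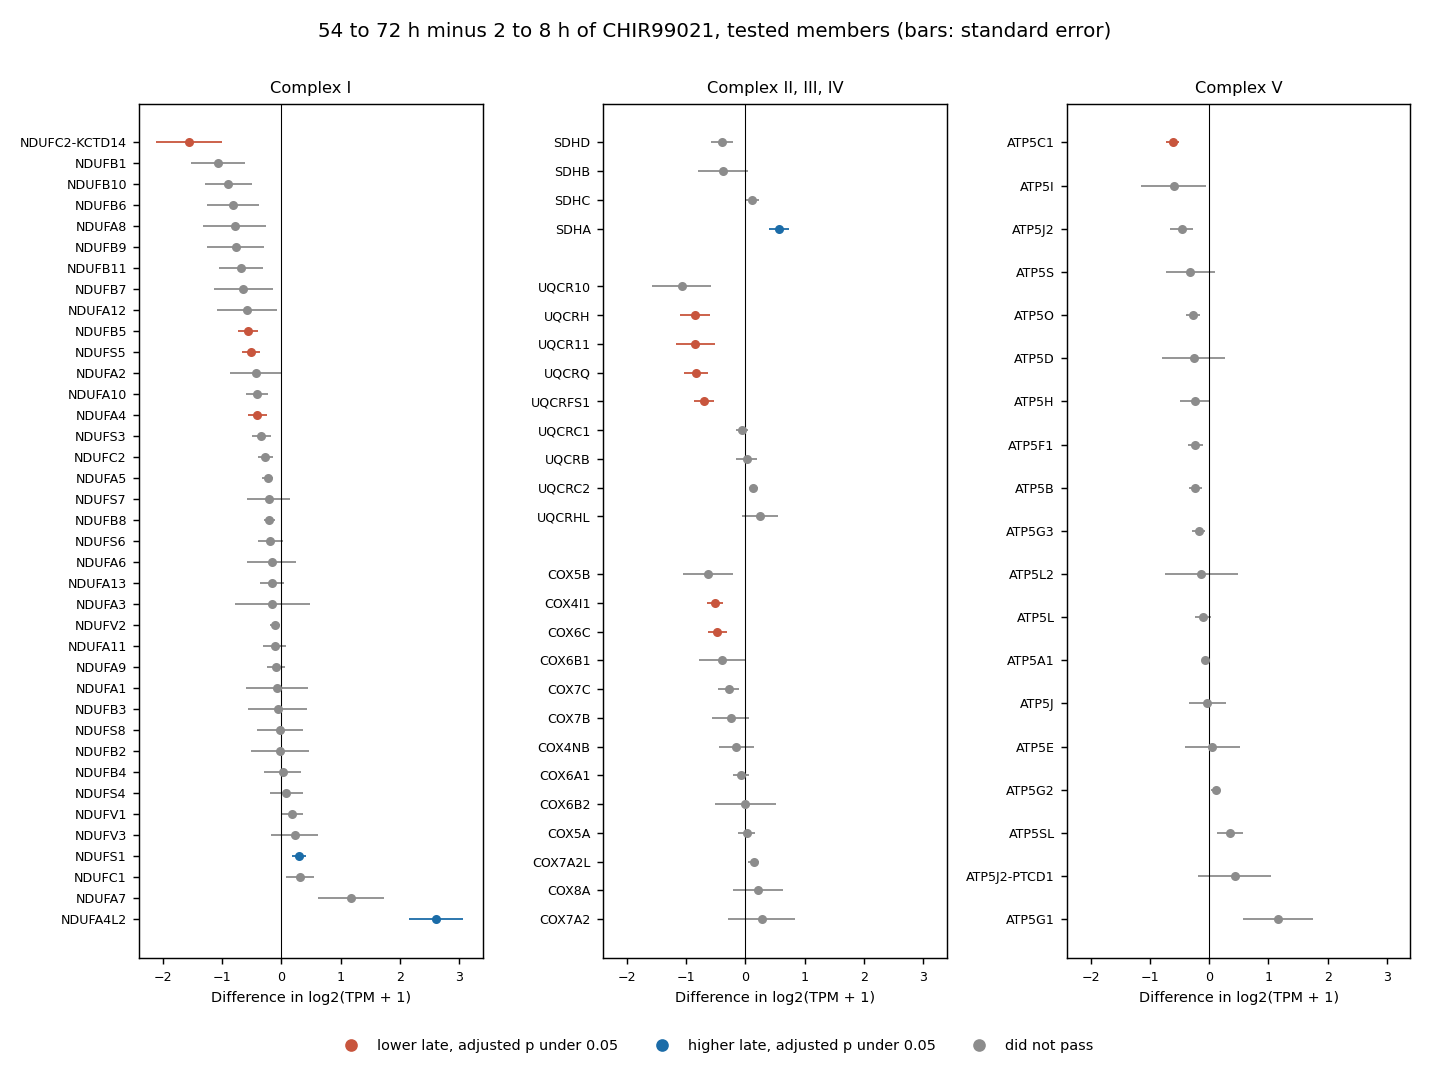
Difference in log2(TPM + 1) between 54 to 72 h and 2 to 8 h for tested members (point, with its standard error as a bar), grouped by complex and coloured by the limma call. Most points lie left of 0, the 5 lowest points of complex III include 4 that passed, and NDUFA4L2 lies farthest right at 2.61.

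Complex III had the lowest median of the 5 complexes, -0.70 (-0.39 without the 3 libraries of few genes), and its members split. UQCRFS1, the Rieske iron-sulfur protein that takes electrons from ubiquinol, was at 108 to 198 TPM (median 133) early, 69.9 to 173 (116) on the first day and 23.3 to 166 (93.6) late. Of the 12 late libraries 7 lay below the lowest early one, although the ranges overlapped. The late minus early difference was -0.70 (SE 0.17, limma adjusted p = 0.0013).

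UQCRQ, a small subunit beside the quinone site, was at 24.5 to 77.9 TPM (median 40.0) early, 14.8 to 40.8 (32.8) on the first day and 3.08 to 53.9 (27.9) late. The lowest library was 66 h A1, with the other 66 h libraries at 12.6 and 18.8, and 10 of 12 late libraries were under the early median. The library 66 h A1 had 8 tested members at 0, the most outside the 3 libraries of few genes. It also held the late minimum of UQCRH, COX4I1 and NDUFB5. The UQCRQ difference was -0.84 (SE 0.20, limma adjusted p = 0.0012). UQCRH, the acidic hinge protein that helps cytochrome c1 meet cytochrome c, was at 90.0 to 254 TPM (median 159) early, 43.6 to 115 (88.1) on the first day and 27.2 to 306 (76.5) late. Its highest late value was the library 72 h A2, and 7 of the other late libraries lay below all early ones. The difference was -0.85 (SE 0.26, limma adjusted p = 0.010), and -0.98 without the 3 libraries of few genes. RSEM can divide reads between UQCRH and its near-copy UQCRHL, which averaged 0.72 TPM, so the split between them is uncertain.

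UQCR11, another small subunit, was at 58.8 to 114 TPM (median 96.5) early and 0 to 108 (88.2) late, and passed with -0.84 (SE 0.33, limma adjusted p = 0.045). The late 0 was the library 72 h A2. Without that library the difference was -0.38 and did not pass, so this call rests on it. UQCR10, also a small subunit, had a difference of -1.08 (SE 0.50) that did not pass, and its difference without the 3 libraries of few genes was -0.39 (SE 0.39). The 2 core proteins, which face the matrix and hold the complex together, stayed apart from these: UQCRC1 was at 181 ± 40.2 TPM early and 174 ± 38.6 late (difference -0.05, SE 0.10), and UQCRC2 at 342 ± 47.6 and 378 ± 70.3 (0.14, SE 0.07). UQCRB, which also neighbours the quinone site, was at 41.5 and 42.3 TPM (0.02, SE 0.18). Neither UQCRC1, UQCRC2 nor UQCRB passed. CYC1, the cytochrome c1 of the same complex, which the rule does not name, was at 109 ± 48.2 and 108 ± 24.2 TPM (0.05, SE 0.15).

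**Figure D3:**
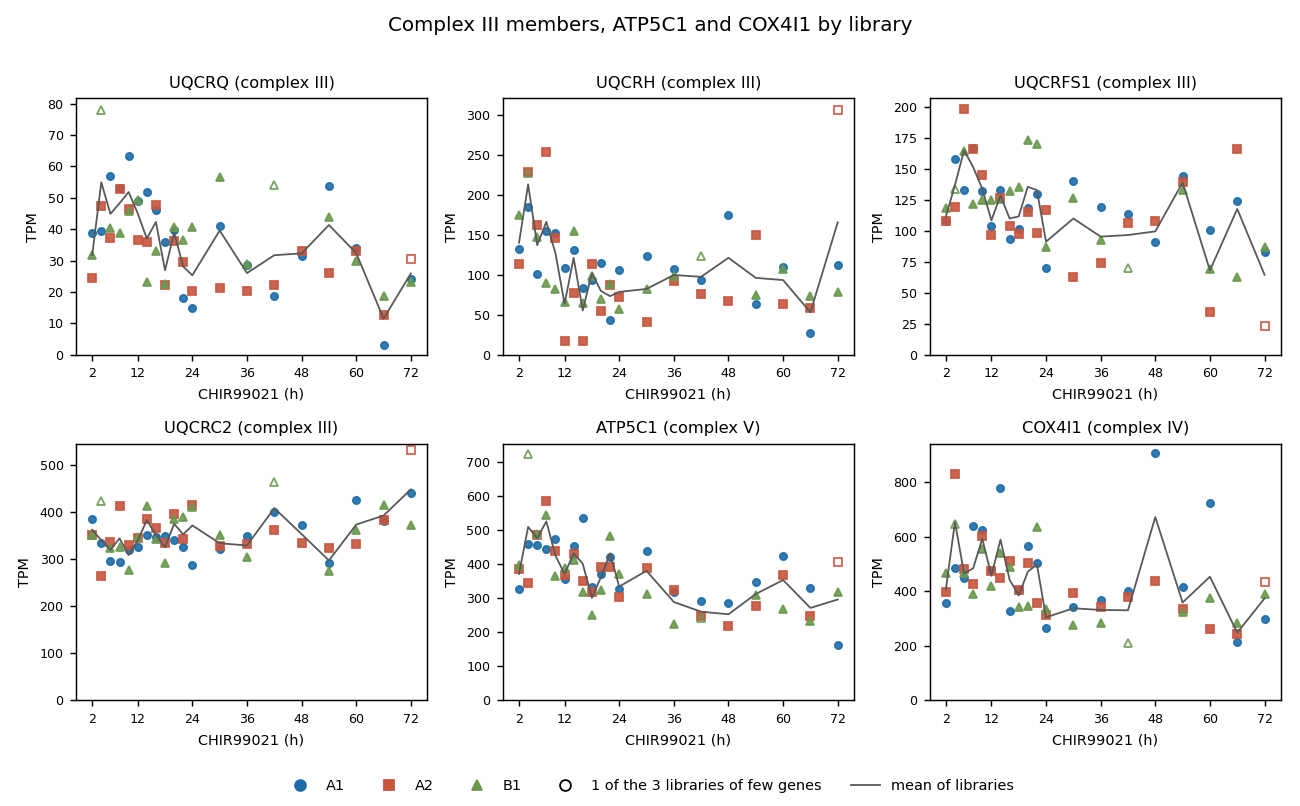
TPM (vertical axes) of UQCRQ, UQCRH, UQCRFS1, UQCRC2, ATP5C1 and COX4I1 against hours of CHIR99021, 1 point per library with the mean per time as a line; open symbols are the 3 libraries of few genes. UQCRQ falls to between 3.08 and 18.8 TPM at 66 h, while UQCRC2 stays between 264 and 532 TPM in the early and late libraries.

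In complex V the gamma subunit of the rotor passed late minus early, while alpha and beta of the head around it did not. ATP5C1, which encodes gamma, was at 328 to 726 TPM (median 459) early, 251 to 482 (353) on the first day and 162 to 425 (315) late. All 12 late libraries were below the early median, 7 of them below the lowest early value, and the early maximum was the library 4 h B1. The difference was -0.62 (SE 0.11, limma adjusted p = 2.7e-05), and it was -0.62 without the 3 libraries of few genes. ATP5A1, for alpha, was at 1049 ± 100 TPM early and 993 ± 72.9 late (-0.08, SE 0.05). ATP5B, for beta, was at 940 ± 124 and 813 ± 165 (-0.23, SE 0.11). Neither passed in this comparison, although ATP5B did without the 3 libraries of few genes, at -0.19. ATP5B was also among the members that changed over the course and that differed between time points. Whether ATP5C1 differed from the head subunits in its change was not tested. Gamma turns inside a head made of alpha and beta, so these proteins work in a single assembly. ATP5J, a stalk subunit, had the smallest difference of the complex, -0.03 (SE 0.31), and none of the 4 stalk, 3 membrane or 3 c-ring rows passed in all 59 libraries (1, 1 and 0 at an unadjusted p under 0.05). ATP5F1, ATP5H and ATP5J of the stalk passed without the 3 libraries of few genes, at -0.28, -0.61 and -0.57.

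Among complex IV members, COX4I1, the ubiquitous form of subunit IV, was at 356 to 831 TPM (median 467) early, 267 to 637 (382) on the first day and 216 to 726 (330) late. In the late group 7 of 12 libraries lay below all early ones and 60 h A1 was high. The difference was -0.52 (SE 0.14, limma adjusted p = 0.0029). COX6C, a small nuclear subunit, was at 136 to 241 TPM (median 178) early and 61.0 to 226 (124) late, with overlap and a difference of -0.48 (SE 0.16, limma adjusted p = 0.020). The COX6C difference did not pass in 4 of the 16 other settings, among them without the libraries labelled A2 or B1. COX5A, which binds the matrix face of the complex, was at a median of 178 TPM early and 191 late (0.02, SE 0.14) and did not pass.

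In complex I, the largest complex, 31 of 39 differences were negative (median -0.19, median SE 0.36) and 14 were at an unadjusted p under 0.05. Without the 3 libraries of few genes, where 9 passed lower and 2 higher, the lower ones included NDUFB9 (-1.37), NDUFB1 (-1.22), NDUFA2 (-0.90) and NDUFB10 (-0.75). NDUFS5, an accessory subunit on the intermembrane side, was at 262 to 646 TPM (median 512) early and 106 to 668 (338) late. The 12 first-day libraries and 11 of the 12 late ones were under the early median, and the late exception was 60 h A1. The difference was -0.51 (SE 0.16, limma adjusted p = 0.0094). NDUFB5, an accessory subunit of the membrane arm, was at 135 to 525 TPM (median 182) early and 90.0 to 411 (127) late, and 7 late libraries lay below all early ones. Its difference was -0.57 (SE 0.17, limma adjusted p = 0.0071).

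NDUFS1, the largest iron-sulfur subunit of the electron-input arm, went the other way, at 69.9 to 122 TPM (median 88.8) early, 36.1 to 118 (87.9) on the first day and 93.8 to 150 (107) late. All 12 late libraries were above the early median and 4 above the early maximum, 3 of them the 54 h libraries. The difference was 0.30 (SE 0.11, limma adjusted p = 0.037), and it did not pass in 9 of the 16 other settings, among them without the library 72 h A2, at 0.26. NDUFB2 and NDUFB4, of the membrane arm, had the smallest differences, -0.02 and 0.02. The readthrough locus NDUFC2-KCTD14 was at 0 to 58.5 TPM (median 23.3) early and 0 to 55.5 (7.29) late, with a difference of -1.56 (SE 0.56, limma adjusted p = 0.029). It did not pass without 4 h B1 (-1.45) or without 72 h A2 (-1.36), and it shares exons with NDUFC2, so RSEM's division of reads between them is uncertain.

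In complex II, which links the citric acid cycle to the chain, SDHA, the flavoprotein that oxidises succinate, was at 14.3 to 107 TPM (median 91.8) early, 67.7 to 125 (90.1) on the first day and 80.6 to 228 (105) late. Its lowest early value was 4 h B1 and its highest late value 72 h A2, both libraries of few genes, and 5 of 12 late libraries lay above all early ones. The difference was 0.57 (SE 0.17, limma adjusted p = 0.0072). It was 0.36 without 4 h B1 and 0.29 without all 3 such libraries, and it passed in both. The other 3 subunits did not pass: SDHB, the iron-sulfur subunit, was at 32.9 and 31.7 TPM, SDHC, a membrane anchor, at 79.5 and 85.7, and SDHD, the other anchor, at 86.0 and 63.9 (early and late means). The difference of SDHB changed sign, from -0.38 (SE 0.42) to 0.16 (SE 0.21) without the 3 libraries of few genes.

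The largest difference of all members was that of NDUFA4L2, the paralog of NDUFA4. NDUFA4 was first named as a subunit of complex I and was later found with complex IV, and NDUFA4L2 is known as a target of hypoxia-inducible factor. NDUFA4L2 was listed at 0 in 11 of 12 early libraries (the highest was 1.97 TPM), at 0 in 7 of 12 on the first day (highest 3.28) and above 0 in 10 of 12 late libraries (median 9.34, highest 17.0). The 2 late libraries at 0 were 66 h A1 and 72 h A2, and 9 late libraries were above the early maximum. The difference was 2.61 (SE 0.46, limma adjusted p = 1.4e-05) late minus early and 2.09 (SE 0.46, limma adjusted p = 0.00098) late minus first day. Since most early libraries are listed at 0, no fold is given. NDUFA4 itself was at 81.9 to 299 TPM (median 96.6) early and 44.8 to 129 (90.3) late, with a difference of -0.40 (SE 0.15, limma adjusted p = 0.041). Its early maximum was 8 h A2, the groups overlapped, and the difference did not pass without 4 h B1 (-0.38). The share of NDUFA4L2 in the pair's summed TPM was 0.133% early, 0.872% on the first day and 9.24% ± 6.49 late (SD, n = 12).

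**Figure D4:**
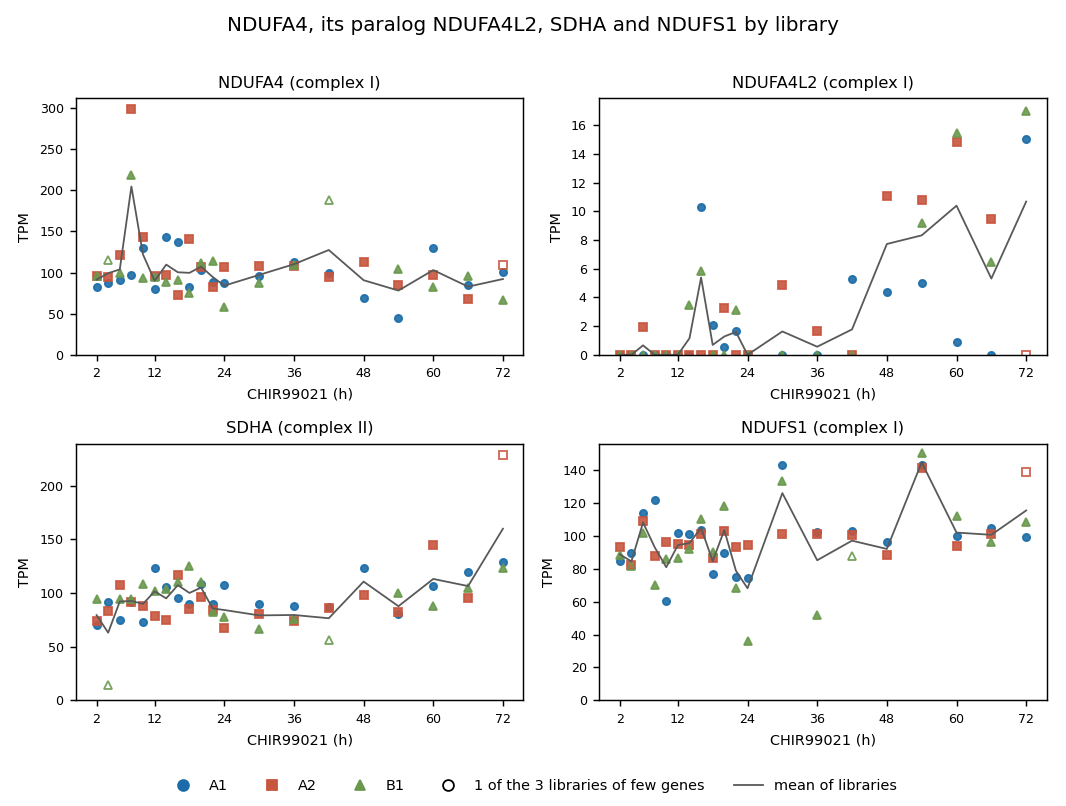
TPM (vertical axes) of NDUFA4, NDUFA4L2, SDHA and NDUFS1 against hours of CHIR99021, 1 point per library with the mean per time as a line; open symbols are the 3 libraries of few genes. NDUFA4L2 stays at or under 1.97 TPM through 8 h and reaches 17.0 TPM at 72 h, while NDUFA4 is higher than NDUFA4L2 in all 59 libraries.

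On the first day 7 members were already lower than early and 0 were higher (20.0% of all genes tested passed, 9.45% lower and 10.5% higher), with 15 members at an unadjusted p under 0.05. The first-day and late comparisons share the early libraries, so the values are set side by side and not counted as repeats. UQCRH differed by -0.96 (SE 0.26) on the first day and -0.85 late, UQCRQ by -0.59 (SE 0.20) and -0.84, COX6C by -0.45 (SE 0.16) and -0.48, and ATP5C1 by -0.38 (SE 0.11) and -0.62. The remaining 3 had smaller late differences, which did not pass. They were NDUFA9, an accessory subunit near the quinone site of complex I (-0.45, SE 0.15, on the first day and -0.10 late), ATP5F1, subunit b of the stalk (-0.42, SE 0.13, and -0.24), and ATP5G3 (-0.30, SE 0.11, and -0.18). The 7 limma adjusted p-values ran from 0.0059 for UQCRH to 0.042 for COX6C and ATP5G3. Without the library 4 h B1, which is high for several of these genes, UQCRQ (-0.52), COX6C (-0.40), NDUFA9 (-0.38) and ATP5G3 (-0.24) did not pass. The narrower comparison of 22 and 24 h with 2 and 4 h gave -0.16 for ATP5C1, which did not pass there. Without the libraries labelled A2 (-0.41) or B1 (-0.27) it did not pass either. Without all 3 libraries of few genes 10 members were lower and 1, ATP5G2, higher, when 27.6% of all genes passed. After quantile normalization 4 were lower and 1 higher, and the share of all genes in that setting is not given here.

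Late minus first day, 2 members passed, both higher, against 12.5% of all genes tested (5.43% higher and 7.08% lower): NDUFA4L2, given above, and NDUFS1, at 83.8 ± 20.4 TPM on the first day and 116 ± 21.0 late (difference 0.49, SE 0.11, limma adjusted p = 0.0014). Another 9 were at an unadjusted p under 0.05, for 11 in all. In complexes III, IV and V no member passed in this comparison (2, 0 and 2 at an unadjusted p under 0.05). Without the 3 libraries of few genes ATP5C1, ATP5A1, NDUFB1 and NDUFB5 were lower late than on the first day, and NDUFA4L2 and NDUFS1 were higher. The share of all genes that passed in that setting is not given here, so this is not read as a result about the members.

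In the fit of all 59 libraries, few members departed from the neighbouring times at 30 and 54 h. They were 3 of 84 at 30 h (4.50% of all genes tested did) and 2 of 84 at 54 h (8.35%), all of complex I. Members of other complexes passed without the 3 libraries of few genes, as given below. NDUFC2, an accessory subunit of the membrane arm, was at 45.4, 47.1 and 63.7 TPM at 24 h, 104, 129 and 131 at 30 h, and 89.2, 77.1 and 56.3 at 36 h (libraries A1, A2 and B1). It was at 65.9 and 68.5 TPM at 48 h, 126, 141 and 106 at 54 h, and 91.5, 67.2 and 39.4 at 60 h. All 3 libraries at 30 h and all 3 at 54 h lay above every library of their neighbours. Reads shared with the readthrough locus NDUFC2-KCTD14 make its level uncertain. The differences were 0.97 (SE 0.23, limma adjusted p = 0.0073) at 30 h and 0.92 (SE 0.24, limma adjusted p = 0.0091) at 54 h. The latter did not pass after median-ratio scaling or quantile normalization (0.71 in both).

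NDUFS1 was at 143, 101 and 134 TPM at 30 h, against 74.3, 94.2 and 36.1 at 24 h and 102, 101 and 52.0 at 36 h. Its 30 h library A2 was level with 2 libraries at 36 h, and the difference was 0.79 (SE 0.19, limma adjusted p = 0.0095). NDUFA5, of the peripheral arm, was at 227, 330 and 218 TPM at 30 h, above all libraries at 24 h (169 to 183) and 36 h (150 to 166), with a difference of 0.61 (SE 0.17, limma adjusted p = 0.024). It did not pass after median-ratio scaling (0.56) or quantile normalization (0.51). Together these made 3 higher and 0 lower of 84 at 30 h, against 2.55% of all genes higher and 1.95% lower, and the median of the members was 0.15, against 0.00 over all genes.

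At 54 h 1 member was higher, NDUFC2, and 1 lower, against 6.54% of all genes higher and 1.81% lower. The lower one was NDUFA13 (GRIM-19), a membrane-arm subunit, at 91.5, 114 and 136 TPM, against 338 and 387 at 48 h and 316, 176 and 173 at 60 h. All 3 libraries were below their neighbours, and the difference was -1.30 (SE 0.36, limma adjusted p = 0.017). NDUFS1 was at 143, 141 and 150 TPM at 54 h, above all 5 neighbouring libraries (88.1 to 112), and its difference of 0.58 (SE 0.20) did not pass. Without the 3 libraries of few genes NDUFS1 passed at 54 h, with the same difference (limma adjusted p = 0.036). The median of the 84 members was -0.10, against 0.10 over all genes as deposited. After median-ratio scaling the all-gene median at 54 h was -0.01, and 5 members were lower and 0 higher. Quantile normalization left 3 lower and 0 higher. The sign balance of the calls at 54 h thus changed with the scaling. The shares of all genes higher and lower in these settings are not given here, so this is not read as a result about the members. Each of the 5 calls at 30 and 54 h was lost without the libraries labelled A1. Without the 3 libraries of few genes 5 passed at 30 h and 9 at 54 h, when 11.2% and 17% of all genes did. At 30 h 4 of them were higher and 1, NDUFS7, was lower (-1.22). At 54 h 5 were higher and 4 lower. They included COX4NB at both times, and UQCRFS1 of III (0.81) and ATP5G2 of V (-0.40) at 54 h. Those 3 libraries are from other times, so the differences stay the same and the estimated spread changes.

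Glycolysis and hypoxia genes were lower at these times. Of 23 tested genes of that list, 16 were lower at 30 h (median difference -0.85) and 18 at 54 h (-0.93), against 1.95% and 1.81% of all genes. Their summed TPM was 12449 to 12716 at 30 h, against 18606 to 19491 at 24 h and 21546 to 21938 at 36 h. At 54 h it was 14014 to 14706, against 19767 to 22406 at 48 h and 22124 to 24542 at 60 h. Examples at 30 h were PFKFB4, an activator of glycolytic flux (-3.55), BNIP3, a mitophagy receptor (-2.54), and P4HA1, a prolyl hydroxylase subunit (-2.16). Late minus early 15 of the 23 were higher and 3 lower (median 0.46), against 14.3% and 15.8% of all genes, among the higher ones the glucose transporter SLC2A1 (1.74) and PDK1, the kinase that inhibits pyruvate dehydrogenase (1.04). Across the 20 time-point means the median profiles of the 84 members and of this list had a Pearson r of -0.22, given as a description of series that share their libraries.

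**Figure D5:**
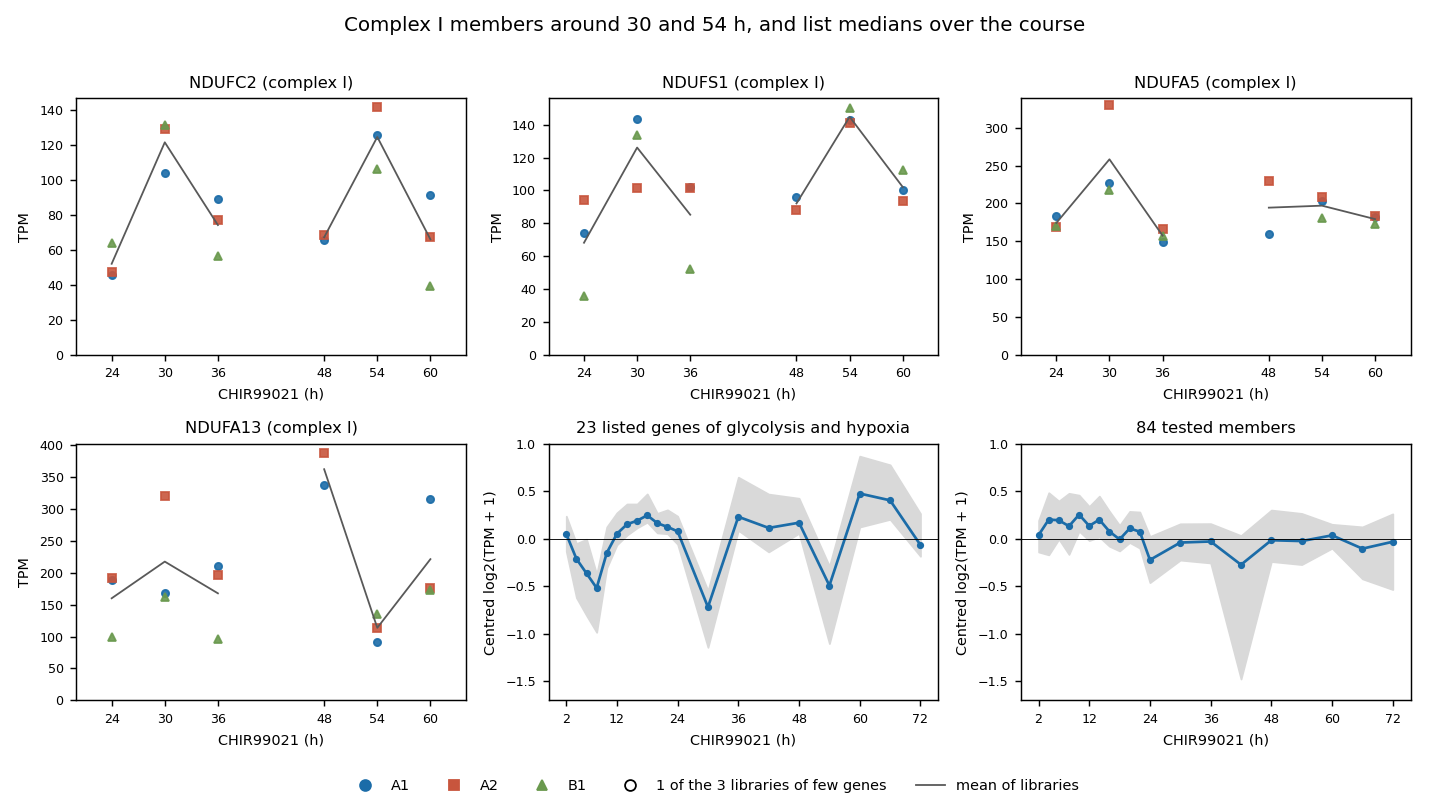
TPM of NDUFC2, NDUFS1, NDUFA5 and NDUFA13 (vertical axes) by library at 24, 30 and 36 h and at 48, 54 and 60 h of CHIR99021, with the mean per time as a line, and the median (line) and quartiles (grey) of centred log2(TPM + 1) over the 20 times for 23 glycolysis and hypoxia genes and for the 84 members. Of the times shown NDUFC2 has its highest means at 30 and 54 h, where the median of the glycolysis list lies below 0.

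Of the paralogs known from muscle, lung or testis, 5 were at or near 0 in all or nearly all libraries. COX6A2 and COX7A1, the heart and skeletal muscle forms, and COX7B2, a testis form, were listed at 0 in all 59 libraries. COX4I2, the lung form of subunit IV, was above 0 in 1 library (5.06 TPM) and COX8C, a testis form, in 2 (highest 8.91 TPM), so these 5 were not tested. Their partners COX6A1, COX7B, COX4I1 and COX8A made up 99.9% to 100% of each pair on average, and at the lowest 95.8% (COX8A) and 99.4% (COX4I1) in single libraries; COX8A itself was at 0 in 1 library. COX6B2, another testis form, was above 0 in 33 of 59 libraries and was tested. Its partner COX6B1 made up 97.0% ± 13.0 of the pair on average (SD, n = 59). In the library 42 h B1 that order was turned, with COX6B2 at 116 TPM and COX6B1 listed at 0. COX7A2L, an assembly factor of respiratory supercomplexes, took 72.5% of the COX7A sum and COX7A2, the subunit, 27.5%. ATP5G1, ATP5G2 and ATP5G3 encode the same mature c subunit, and ATP5G2 carried 82.4%, ATP5G3 14.3% and ATP5G1 3.30% of their sum. ATP5G2 differed between time points (limma adjusted p = 0.0054), with 547 ± 57.8 TPM early, 632 ± 89.0 on the first day and 594 ± 110 late. Its time-point means ran from 499 TPM at 14 h to 911 at 48 h, where the library A2 was at 1057.

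The genes that control or assemble the chain were read against the same shares of all genes late minus early (15.8% lower and 14.3% higher, 30.1% in all). Of 14 tested regulators of mitochondrial biogenesis, 6 were lower late than early and 1 was higher, with a median difference of -0.55, so 50% were called. TFAM, which packages and transcribes mitochondrial DNA, was at 233 ± 67.6 TPM early, 144 ± 21.5 on the first day and 162 ± 69.2 late (late minus early -0.58, SE 0.11, limma adjusted p = 2.5e-05). It was at 263 ± 19 TPM at 30 h and 265 ± 48.4 at 54 h, with differences from the neighbouring times of 0.93 and 1.09 that both passed. PPRC1, a coactivator related to PGC-1alpha, was likewise lower late (-0.82, SE 0.21) and higher at 30 h (1.65) and 54 h (2.31). PPARGC1A, which encodes PGC-1alpha, was low throughout, at 3.38 ± 2.10 TPM early and 1.36 ± 1.77 late (-1.04, SE 0.31, limma adjusted p = 0.0073). GABPA, the ETS factor named above, was the higher one, at 41.3 ± 9.47 and 57.2 ± 10.7 TPM (0.47, SE 0.12, limma adjusted p = 0.0022). NRF1 (0.08, SE 0.29) and ESRRA, an orphan nuclear receptor (-0.92, SE 0.37), did not pass.

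Of 21 tested assembly factors of complexes II to V, 7 (33.3%, near the 30.1% of all genes) were lower late and 0 higher (median -0.22, 8 at an unadjusted p under 0.05). The largest differences were in SDHAF2 (-1.68) and SDHAF1 (-1.66), which mature complex II, and COX14 (-1.64), of complex IV. Of 12 complex I assembly factors (median 0.03) 1 (8.33%) was higher late, NUBPL, which delivers iron-sulfur clusters (0.75, SE 0.21). NDUFAF4, another of them, was higher at 30 h (1.51) and 54 h (1.77). Among 14 electron carriers and coenzyme Q genes (median -0.35) 3 (21.4%) were lower late, PDSS1 (-1.19), COQ7 (-0.40) and ETFA (-0.35). CYCS, cytochrome c itself, was lower on the first day (-0.77, SE 0.17) and higher at 30 h (1.12, SE 0.30), and did not pass late minus early (-0.35, SE 0.17).

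Length was taken as the median over a gene's annotated protein-coding transcripts in GENCODE v29. These can include partial ones, so it need not be the length of the expressed mRNA. By that measure members had a median of 718 bases, against 1886 for all genes tested. Of the 84, 62 were under 1000 bases, against 22.4% of genes. The median residual SD on the log2 scale was 0.65 over members and 0.64 over all genes. It was 1.03 for the 23 members under 600 bases and 0.66 for the 22 of 1000 bases or more. The members between these lengths are in neither value, so the values do not show a steady fall with length. Across the 84 members Spearman's rho of residual SD was -0.68 with mean level and -0.26 with length; genes are not independent replicates. ATP5G1 had a late minus early difference of 1.16 (SE 0.60) that did not pass. Without the 3 libraries of few genes it was 1.22 (SE 0.52, limma adjusted p = 0.059), which did not pass either. NDUFA7 had one of 1.17 (SE 0.56), and 0.66 (SE 0.52) without those libraries, and passed in neither.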

How the data were processed

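Polyadenylated RNA of 59 cultures was sequenced as single reads. Per the submitters' processing notes the authors used CASAVA 1.8.2, Bowtie 0.12.8 and RSEM 1.2.3 with the hg19 genome, and deposited TPM per gene; which annotation defined the genes is not given. TPM keep no depth. Levels of short genes and of genes that share sequence (UQCRH and UQCRHL, ATP5L and ATP5L2, NDUFC2 and ATP5J2 with their readthrough loci) can be uncertain. Here log2(TPM + 1) was fitted with limma 3.58.1 (R 4.3.3, trended variance, 39 residual degrees of freedom for time-point means) over 15305 genes with at least 1 TPM in at least 3 libraries. P-values were adjusted by Benjamini-Hochberg over all of them, and members passed at an adjusted p under 0.05. Contrasts weighted time points equally, and the course was a spline with 4 degrees of freedom. The code was tested on simulated data.

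The members and lists were chosen with earlier results of these data known. Up to 4 passing members with the largest differences and a mean of at least 5 TPM were named per complex and comparison, with the member of smallest difference, members against their complex, and fixed paralog sets; of other lists up to 3 genes, plus PPARGC1A, NRF1, GABPA, ESRRA, TFAM and CYC1. Names outside this rule were added after their values were seen. Alternatives were other pseudocounts, filters, scalings, splines and windows, a replicate block, and libraries left out. Of 1 member, included in the counts, no values are reported here. Correlations, motifs and transcript lengths (GENCODE v29) are descriptions.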

Additional observations from a re-analysis of the deposited data

How the results depend on the processing

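Counts below are members that passed of 84. The share of all genes that passed can change with the setting too, and is not listed here. The counts are therefore not read as results about the members. Without the 3 libraries of few genes, the counts rose to 30 between any time points, 23 late minus early, 11 first day minus early, 6 late minus first day, 5 at 30 h and 9 at 54 h. Without 42 h B1 alone they were 4 late minus first day and 4 at 54 h, and without 72 h A2 alone 5 at 54 h (single libraries were left out after seeing the data). Without 6, 30 and 54 h, 4 passed first day minus early and 4 late minus first day; 22 and 24 h against 2 and 4 h gave 3. A mean of at least 5 TPM left 1 late minus first day, where NDUFA4L2 was not tested, and median-ratio scaling gave 5 at 54 h. Leaving out 1 replicate label gave 10 to 26 over the course, 4 to 11 between any times, 10 to 13 late minus early, 2 to 3 first day minus early, 1 to 3 late minus first day, 0 to 4 at 30 h and 0 to 5 at 54 h. The cause was not tested. No call given for a member reversed in sign. ATP5C1, UQCRFS1 and UQCRQ passed late minus early in all 16 other settings, and NDUFA4L2 in all 15 in which it was tested. Other late minus early calls were lost when a label was left out. COX4I1, NDUFS5 and SDHA did not pass without A2, UQCRH without A1 or B1, and NDUFB5 without B1. NDUFB5 and COX6C also did not pass at 66 and 72 h against 2 and 4 h. With the replicate block, counts were 19, 18, 14, 8, 2, 3 and 3 in the order course, any time, late minus early, first day minus early, late minus first day, 30 h and 54 h. The labels A1, A2 and B1 were not taken to pair libraries across times: 8 of 551 same-label pairs and 13 of 1102 different-label pairs correlated over 0.1 in their deviations from time-point means, although 42 of 59 libraries were closer to their own label. Depth is unknown, and genes listed at 0 can be unsampled.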

Other observations

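The citric acid cycle and pyruvate dehydrogenase, which supply NADH and succinate to the chain, were examined as a list of 16 genes. Late minus early 2 of the 16 were lower and 0 higher, with a median of -0.03, against 30.1% of all genes passing. PDHB, the beta subunit of the E1 component of pyruvate dehydrogenase, was at 429 ± 83.2 TPM early, 300 ± 27.5 on the first day and 196 ± 40.5 late (SD, n = 12 each). Its late minus early difference was -1.13 (SE 0.10, limma adjusted p = 2.2e-13), and its first day minus early difference -0.49 (SE 0.10, limma adjusted p = 0.00011). DLST, of the oxoglutarate dehydrogenase complex, was the other lower gene late (-0.82, SE 0.31, limma adjusted p = 0.042). DLAT, the E2 component, was lower on the first day (-0.41, SE 0.15, limma adjusted p = 0.045). MDH2, mitochondrial malate dehydrogenase, was higher late than on the first day, at 215 ± 38.9 against 161 ± 16.9 TPM (0.40, SE 0.11, limma adjusted p = 0.013).

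At 54 h DLAT was at 59.4 ± 13.0 TPM and DLD, the shared E3 component, at 209 ± 25.4 (SD, n = 3), and both were higher than at 48 and 60 h, by 1.15 (SE 0.27, limma adjusted p = 0.0037) and 0.72 (SE 0.17, limma adjusted p = 0.0034). At 30 h none of the 16 passed by limma (4 at an unadjusted p under 0.05). Across the 20 time-point means the median profile of the 84 oxidative phosphorylation members had a Pearson r of 0.55 with that of this list and the complex I members one of 0.72 with those of complex V. These series share their libraries, and the values are descriptions.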
